A study of Mus musculus with 32 samples.

Results

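The first hour of the LPS response of wild-type macrophages was followed in 8 of the 32 RNA-seq libraries of the study, 4 from unstimulated cells (0 h) and 4 from cells given 100 ng/ml lipopolysaccharide for 1 h. These cells were bone marrow-derived macrophages (BMDM-WT) of male C57Bl6/J mice aged 6 to 12 weeks, grown from femur and tibia marrow for 7 days in medium with L929-conditioned supernatant, which supplies M-CSF. The genotype label of these mice is wt. A second set of 8 libraries at 0 and 1 h came from BMDM-Nur77-KO, whose genotype label is cre, and served as cells in which the same comparison could be made with no shared library. These mice lack Nur77 in the whole body: the loxP-flanked Nr4a1 locus was deleted by a Cre under the human CMV promoter, and the line was then bred without the Cre. Libraries of both genotypes at 5 and 18 h of LPS gave levels over time. The 4 replicates of a group were seeded as wells of a plate, and how many mice they came from is not stated, so p-values measure the spread between these wells, which may be technical.

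LPS, a component of the wall of Gram-negative bacteria, binds CD14 and the TLR4-MD-2 complex on macrophages. Adaptor proteins pass the signal to the NF-kB factors and to MAP kinases, which act through factors that the resting cell already holds, so a first wave of immediate-early genes is transcribed without new protein. This wave holds transcription factors of the EGR, AP-1 and NR4A families, cytokines and chemokines, and inhibitors that later limit the response.

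Each library held between 8742362 and 15214524 counts over 1 transcript per gene, the lowest in replicate 4 at 1 h. The first principal component of the 8 libraries held 76.5% of the variance and separated 0 h from 1 h. On the second, with 7.12%, replicate 2 at 0 h and replicate 4 at 1 h scored 17.2 and 15.4, and the other 6 libraries lay between -12.8 and 2.07. Levels are given as CPM, counts per 1000000 counts of the library, with library sizes scaled by TMM, and a gene was called when its adjusted p was under 0.05 and its log2 fold change over 1 in size. All 9 macrophage markers were found in both groups, with a summed level of 13522 to 18928 CPM at 0 h and 16585 to 18826 CPM at 1 h. The 6 fibroblast and 6 erythroid markers reached at most 0.361 CPM in sum. The 8 neutrophil markers summed to 17.9 to 30.0 CPM at 0 h and 28.2 to 37.6 CPM at 1 h, with Ly6g at 0 at 1 h, and the 6 dendritic cell markers to 1.36 to 1.67 and 3.16 to 4.39 CPM, of which Xcr1 was called. The 5 B cell, 6 T cell and 6 mast cell and basophil markers summed to at most 4.73, 21.9 and 5.34 CPM at either time, with Fcer1a and Mcpt4 at 0, and none of them was called. The part of these cells in the results was not tested. In bulk RNA, fewer cells of a type and less RNA per cell cannot be told apart.

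After 1 h of LPS, 387 of 11192 tested genes were higher (3.46%) and 183 were lower (1.64%). The induced genes had larger fitted changes: 189 rose by over 2 on the log2 scale, 109 by over 3 and 42 by over 5. Of the lower genes, 24 fell by over 2, 5 by over 3 and 0 by over 5. These sizes are not on equal terms, since a fall is bounded by the level at 0 h. Of the 387 higher genes, 33 had at most 3 counts in every library at 0 h and 10 of them had none, which makes fitted rises large. The median log2 fold change was 1.95 for the higher genes, -1.41 for the lower genes and -0.02 over all tested genes. With no limit on size, 1166 genes were higher and 1097 lower at an adjusted p under 0.05, so the excess of higher genes lay in the large changes. The 4 libraries at 1 h did not overlap the 4 at 0 h for 378 of the 387 higher and 178 of the 183 lower genes, against 31.8% of all tested genes. The called genes were chosen on this contrast, and nothing is read from that count.

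**Figure D1:**
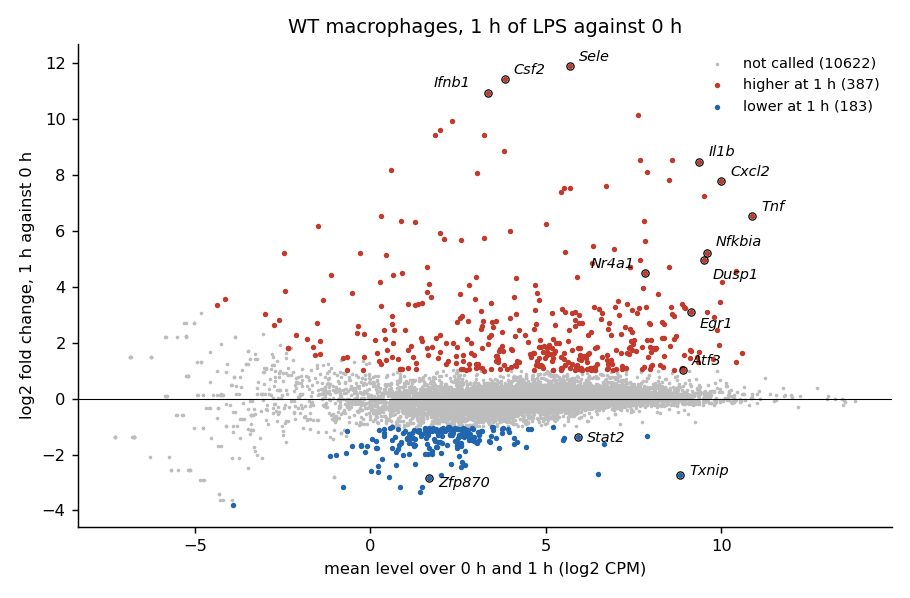
Log2 fold change (1 h of LPS against 0 h, BMDM-WT) against the mean level of each tested gene on a log2 CPM axis, with called genes in colour and 14 genes named. Higher genes reach a log2 fold change of 11.90 (Sele) and are found at all levels, whereas most lower genes lie at low levels and Txnip lies higher. Genes with no count in the 8 libraries are not drawn.

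The induced genes held 1.91% to 2.04% of all counts at 0 h and 8.53% to 9.43% at 1 h. The repressed genes held 0.353% to 0.384% at 0 h and 0.0971% to 0.107% at 1 h. The gain in abundance was concentrated: per kilobase of transcript (RPKM), the 10 genes with the largest gains (Tnf, Cxcl2, Il1b, Nfkbia, Dusp1, Ccl2, Rasgef1b, Zfp36, Tnfaip3 and Tnfsf9) accounted for 33.2% of the summed gain of the induced genes.

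Tnf, the inflammatory cytokine TNF-α (transcript at chr17:35199367-35202007, 4 exons, mm10), gained the most. Its level was 43.6, 38.5, 36.0 and 43.8 CPM in the 4 libraries at 0 h and 3711, 3678, 3710 and 3809 CPM at 1 h. This was a 92.1-fold rise (log2 fold change 6.53 ± 0.16 (SE), adjusted p = 8.85e-25), with a spread between wells far under the change. Per kilobase it went from 24.7 to 2274 RPKM. Egr1, a zinc-finger transcription factor that growth factors and stress also induce, was 114, 119, 118 and 112 CPM at 0 h and 953, 1083, 998 and 983 CPM at 1 h (log2 fold change 3.12 ± 0.15 (SE), adjusted p = 6.94e-17). Atf3, a bZIP factor known to restrain Toll-like receptor responses, was already abundant in resting cells, at 319.7, 302, 319 and 329 CPM, and reached 685, 632, 658 and 579 CPM. Its groups did not overlap, but its change was just over the limit (log2 fold change 1.01 ± 0.065 (SE), adjusted p = 9.57e-14). Tnf, Egr1 and Atf3 mark the label of these libraries, and all 3 were higher in every well at 1 h.

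**Figure D2:**
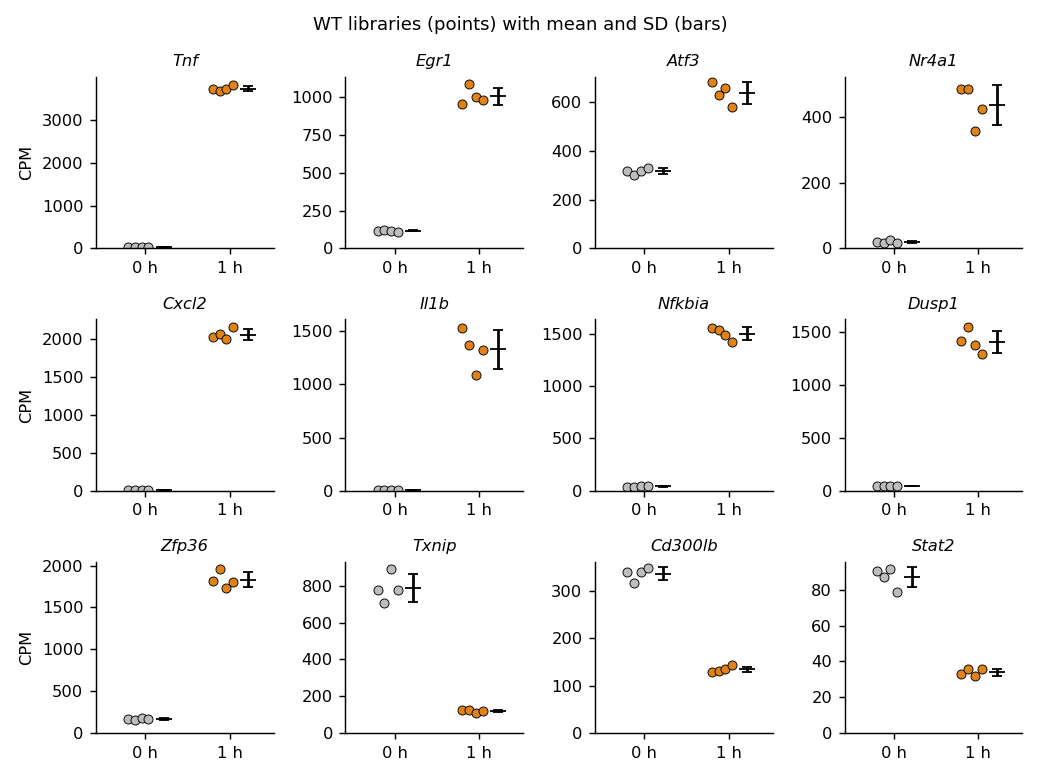
Levels in CPM (vertical axes, from 0) of 12 genes in the 4 BMDM-WT libraries at 0 h (grey) and the 4 at 1 h (orange), with the mean and SD beside the points. In each panel the 4 libraries at 1 h lie wholly above or, for Txnip, Cd300lb and Stat2, wholly below the 4 at 0 h.

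Cytokine genes had the highest median change of the 25 lists examined, which were chosen with earlier results of these data known. Of 25 tested, 19 rose and 0 fell, with a median log2 fold change of 5.70. A gene was tested if it passed 1 RPKM in any of 8 groups. Genes with no count at 0 h thus entered through other groups and could not fall. Nothing is read from the rank or from the 0. Over all tested genes 3.46% were higher and 1.64% lower, and these shares stand beside the counts of every list. Il1b, a pyrogenic cytokine that is made as a precursor, went from 3.18, 2.92, 3.90 and 5.06 CPM to 1536, 1372, 1085 and 1325 CPM (log2 fold change 8.47 ± 0.19 (SE), adjusted p = 2.15e-25). Il1a, its relative, went from 2.72, 1.61, 2.40 and 1.66 CPM to 805, 799, 659 and 861 CPM (log2 fold change 8.56 ± 0.18 (SE), adjusted p = 6.38e-26). Both overlap a non-coding gene that was called as well, Il1bos and Gm14023, whose reads cannot be told apart from theirs without strand. Tnfsf9, the ligand of 4-1BB, rose from a mean of 3.19 to 727.9 CPM (log2 fold change 7.81), and Il10, the main anti-inflammatory cytokine of macrophages, from 1.06, 0.885, 1.05 and 1.30 CPM to 223, 230.1, 174 and 204 CPM (log2 fold change 7.60).

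A group of cytokines went from no count at all to clear expression. Csf2 (GM-CSF) had 0 counts in all 4 libraries at 0 h and 297 to 426 counts at 1 h, which is at least 139.8-fold higher against a floor of 3 counts per library. Ifnb1 (interferon-β) had 0 counts and then 194 to 322 counts, at least 101.3-fold higher. For Il23a (the p19 subunit of IL-23) the bound was 49.6-fold, for Areg (the EGF receptor ligand amphiregulin) 40.0-fold and for Il6 35.5-fold. Il6 was then still scarce, at 8.94, 8.77, 3.94 and 7.11 CPM, with replicate 3 the lowest. Il12b, the p40 subunit shared by IL-12 and IL-23, had 1 count at 0 h and 1000 at 1 h over the 4 libraries, a ratio of 1127 with a 95% interval of 201.8 to 44553 that covers counting error only. Il12a, the p35 subunit of IL-12, was at 0 at 0 h and had a mean of 0.0509 CPM at 1 h (adjusted p = 0.117). Ebi3, Il15, Il18, Il27 and Tgfb1 were not called, with log2 fold changes between -0.05 and 0.44.

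Sele, the adhesion receptor E-selectin, known best from endothelial cells, had the largest fitted change of all. It had 1 count at 0 h and 5459 at 1 h over the 4 libraries, a ratio of 6152 with a counting interval of 1104 to 243020. At 1 h it stood at 105, 103, 95.7 and 113 CPM. Mir155hg, the host transcript of miR-155, had 3 counts at 0 h and 1481 at 1 h, a ratio of 556.3 (interval 190.0 to 2701). It overlaps Mir155, as Zc3h12c overlaps Mir6244, Bhlhe40 overlaps 0610040F04Rik and Arg2 overlaps Vti1b, and reads of such pairs cannot be told apart without strand.

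Of 19 tested chemokine ligands, 13 rose and 0 fell, with a median log2 fold change of 2.25. The neutrophil attractants led. Cxcl2 was 9.54, 9.89, 9.15 and 8.81 CPM at 0 h and 2018, 2055, 1989 and 2145 CPM at 1 h (log2 fold change 7.77 ± 0.11 (SE), adjusted p = 2.62e-30), and Cxcl1 0.151, 0.260, 0.675 and 0.289 CPM and 393, 416, 354 and 421 CPM (log2 fold change 10.16 ± 0.33 (SE), adjusted p = 1.52e-21). In both genes every well at 1 h lay far above every well at 0 h. Cxcl3 (2 counts, then 84) and Cxcl11 (0 counts, then 39) were still scarce at 1 h, with a ratio of 47.3 (interval 12.7 to 397.2) and a bound of at least 3.66-fold. The monocyte attractant Ccl2 started higher, at 115, 188, 129.8 and 147 CPM, and reached 655, 645, 655 and 802 CPM (log2 fold change 2.25 ± 0.13 (SE), adjusted p = 6.95e-15). Ccl9 and Ccl6, abundant in resting cells at 1834 and 1520 CPM on average, were not called, with log2 fold changes of 0.75 and 0.17. Of 7 chemokine receptor genes 1 was called higher, against 3.46% of all tested genes. It was the atypical receptor Ccrl2, with 12.9, 12.0, 13.2 and 13.1 CPM at 0 h and 453, 399, 372 and 386 CPM at 1 h (log2 fold change 4.98).

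Of 21 tested immediate-early transcription factors and related genes of the EGR, KLF, NR4A and other families, 15 rose and 1 fell, with a median log2 fold change of 1.93. Csrnp1, a nuclear protein first known as induced by AXIN1, was 6.96, 4.32, 4.95 and 5.78 CPM at 0 h and 474, 473, 415 and 405 CPM at 1 h (log2 fold change 6.34 ± 0.22 (SE), adjusted p = 8.51e-21). Nr4a1, which encodes Nur77, was 19.2, 15.5, 25.5 and 18.1 CPM and 483, 483, 358 and 422 CPM (log2 fold change 4.48 ± 0.18 (SE), adjusted p = 3.63e-19). Its relatives Nr4a3 and Nr4a2 rose by 3.76 and 2.87 on the log2 scale but reached only 11.0 and 10.4 CPM. The member that fell was Ier5l, a relative of Ier5, which was 2.27, 5.41, 2.48 and 2.74 CPM at 0 h and 0.355, 0.421, 0.267 and 0.418 CPM at 1 h (log2 fold change -3.16 ± 0.36 (SE), adjusted p = 3.35e-08), whereas Ier5 itself rose (log2 fold change 1.18). Klf4, Plk3 and Klf10 had log2 fold changes of 0.97, 0.79 and 0.55, with an adjusted p under 0.05 but under the limit of size. Srf and Gadd45a had log2 fold changes of -0.05 and -0.15 and were not called.

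Among 15 AP-1 and small MAF genes, 9 rose and 0 fell. Maff, a small MAF protein with no transactivation domain of its own, went from 1.89, 2.50, 1.95 and 3.32 CPM to 93.5, 103, 82.2 and 88.8 CPM (log2 fold change 5.24 ± 0.16 (SE), adjusted p = 8.6e-22). Fosb went from 4.84, 5.31, 5.85 and 6.50 to 127, 141, 78.5 and 109.6 CPM (log2 fold change 4.34), with replicate 3 the lowest at 1 h. Junb, Jun and Fos rose from means of 91.0, 69.7 and 122 CPM to 883, 296 and 423 CPM. Fosl2, Jdp2 and Fosl1 also rose, with log2 fold changes of 1.73, 1.52 and 1.49. Jund, Mafg, Mafk, Batf, Batf2 and Batf3 were not called and lay between -0.23 and 0.26. The AP-1 members thus differed in their starting level and in their change.

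Several inhibitors of the pathway rose with the activators. Of 11 NF-kB and IkB genes, 8 rose and 0 fell, and the IkB genes led. Nfkbia, whose product IkBα holds NF-kB in the cytoplasm, was 36.9, 39.6, 40.5 and 46.4 CPM at 0 h and 1558, 1541, 1493 and 1426 CPM at 1 h (log2 fold change 5.20 ± 0.081 (SE), adjusted p = 1.04e-29). Nfkbiz, a nuclear IkB needed for a set of secondary genes such as Il6, went from 11.2, 8.85, 9.45 and 8.60 CPM to 1488, 1517, 1356 and 1450 CPM (log2 fold change 7.25 ± 0.11 (SE), adjusted p = 3.53e-30). Of the 5 NF-kB subunits, Rel and Nfkb2 were called (log2 fold changes 2.71 and 1.11), while Relb, Nfkb1 and Rela had log2 fold changes of 0.89, 0.41 and 0.32. Tnfaip3 (A20), a ubiquitin editor that stops signalling to NF-kB, was 102, 116, 114 and 111 CPM and 2768, 2700, 2582 and 2540 CPM (log2 fold change 4.58 ± 0.066 (SE), adjusted p = 2.62e-30), and 5 of 14 ubiquitin-linked regulators rose in all. Tank, Peli1, Birc2 and Traf6 of that list had log2 fold changes of 0.82, 0.81, 0.39 and 0.32. Their adjusted p was under 0.05, but they were under the limit of size. Cyld, Tnip2 and Otud7b were not called either, with log2 fold changes of 0.27, 0.07 and -0.06.

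Inhibitors of other arms rose too. Of 11 MAP kinase phosphatase genes, 7 rose and 0 fell. Dusp1, which inactivates p38 and JNK, was 45.6, 43.4, 46.7 and 47.1 CPM at 0 h and 1412, 1540, 1375 and 1292 CPM at 1 h (log2 fold change 4.94 ± 0.11 (SE), adjusted p = 6.39e-26). Dusp2 and Dusp8 rose by 5.45 and 4.36 on the log2 scale, whereas Dusp6, which acts on ERK, was at -0.80 and short of the limit. Of 8 SOCS genes 2 rose, against 3.46% of all tested genes. Socs3, an inhibitor of signalling through gp130, went from 1.29, 1.30, 0.525 and 1.30 CPM to 449.7, 451, 385 and 374 CPM (log2 fold change 8.52 ± 0.26 (SE), adjusted p = 2.74e-22), and Cish from a mean of 0.419 to 4.41 CPM. Socs1 had a mean of 0.668 CPM at 0 h and 1.28 CPM at 1 h (adjusted p = 0.388).

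Factors that destroy mRNA rose as well, with 7 of 12 higher and 0 lower. Zfp36 (tristetraprolin), which binds AU-rich elements in cytokine mRNAs, was 171, 153, 174 and 166 CPM at 0 h and 1819, 1957, 1737 and 1806 CPM at 1 h (log2 fold change 3.46 ± 0.086 (SE), adjusted p = 1.54e-24). Its relative Zfp36l1 rose by 1.87 on the log2 scale, and the other relative, Zfp36l2, was at 0.04. The endonuclease gene Zc3h12a (regnase-1) and Zc3h12c rose by 2.71 and 3.38, and Btg2, which links mRNAs to deadenylation, by 3.29.

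The promoters of 6 of these genes are shown to set the response beside the letters next to the start site. They are the 250 bases before the RefSeq start site of mouse build GRCm38.p6, 5′ to 3′ on the gene's strand, for Tnf (chr17:35202008-35202257, minus strand), Atf3 (chr1:191183334-191183583, minus strand), Nfkbia (chr12:55492648-55492897, minus strand), Cxcl2 (chr5:90903649-90903898, plus strand), Ier3 (chr17:35821463-35821712, plus strand) and Zfp36 (chr7:28379229-28379478, minus strand). Capitals mark a match, on either strand, to 1 of 7 motifs. The kB motif was searched as GGANTTTCC or GGANTTCCC, the interferon response motif as GAAANNGAA and the EGR motif as GCGNGGGCG. The CRE was searched as TGACGTCA, the AP-1 motif as TGANTCA and the TATA box as TATAAA, and the CArG box, the site of SRF, by its name.
Tnf: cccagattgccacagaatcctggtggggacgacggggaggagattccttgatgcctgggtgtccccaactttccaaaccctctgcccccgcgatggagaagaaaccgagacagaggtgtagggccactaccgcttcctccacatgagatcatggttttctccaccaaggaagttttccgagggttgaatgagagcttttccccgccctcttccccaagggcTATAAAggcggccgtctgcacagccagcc
Atf3: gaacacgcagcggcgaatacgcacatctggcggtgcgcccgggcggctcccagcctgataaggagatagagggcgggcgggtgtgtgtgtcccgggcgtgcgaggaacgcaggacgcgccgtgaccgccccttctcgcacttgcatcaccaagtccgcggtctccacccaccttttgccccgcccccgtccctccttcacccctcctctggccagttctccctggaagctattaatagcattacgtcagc
Nfkbia: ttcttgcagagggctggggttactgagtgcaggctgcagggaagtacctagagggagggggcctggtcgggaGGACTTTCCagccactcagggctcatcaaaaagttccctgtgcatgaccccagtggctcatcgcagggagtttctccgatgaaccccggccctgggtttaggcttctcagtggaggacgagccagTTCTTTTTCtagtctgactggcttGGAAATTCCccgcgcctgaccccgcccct
Cxcl2: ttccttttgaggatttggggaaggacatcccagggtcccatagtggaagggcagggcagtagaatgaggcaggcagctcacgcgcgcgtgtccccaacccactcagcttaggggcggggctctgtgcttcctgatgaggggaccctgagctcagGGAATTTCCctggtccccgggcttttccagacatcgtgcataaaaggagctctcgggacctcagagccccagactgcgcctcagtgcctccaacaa
Ier3: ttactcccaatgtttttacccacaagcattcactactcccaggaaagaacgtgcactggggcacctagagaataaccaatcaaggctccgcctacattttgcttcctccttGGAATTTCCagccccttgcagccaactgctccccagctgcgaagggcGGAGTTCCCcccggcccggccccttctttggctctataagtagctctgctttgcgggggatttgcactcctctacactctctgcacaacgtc
Zfp36: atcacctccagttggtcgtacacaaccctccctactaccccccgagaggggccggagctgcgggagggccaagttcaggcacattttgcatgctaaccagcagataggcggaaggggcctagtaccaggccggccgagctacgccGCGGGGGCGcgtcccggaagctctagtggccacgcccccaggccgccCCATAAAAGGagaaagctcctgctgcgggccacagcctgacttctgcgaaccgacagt
The Nfkbia promoter held 2 kB matches, at 178 to 170 and 29 to 21 bases before the start site, and 1 interferon response match. The Cxcl2 promoter held 1 kB match (96 to 88 bases before) and that of Ier3, an immediate-early gene that rose by 3.20 on the log2 scale, held 2 (139 to 131 and 92 to 84 bases before). Zfp36 held a CArG box (58 to 49 bases before) and an EGR match, Tnf held a TATA match, and in Atf3 none of these letters was found. Only exact letters were searched, so a site that differs by 1 base, such as ttacgtca in Atf3 beside the CRE, is not marked. A match is a description of the sequence, not evidence that a factor binds.

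In windows from 250 bases before to 50 after the start site, a kB match was found in 2.47% of all 32851 promoters of the table, an interferon response match in 8.56%, a CArG box in 1.63%, an EGR match in 5.55%, a CRE in 1.79%, an AP-1 match in 7.81% and a TATA match in 13.6%. The table held a promoter for 299 of the 387 induced genes (77.3%), 147 of the 183 repressed genes (80.3%) and 8865 of the 11192 tested genes (79.2%). The induced genes and the tested genes are under the 80% needed for such a check, so the comparison of motif shares between sets is void.

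The receptor side of the pathway moved less. Of 13 Toll-like receptor and co-receptor genes, 2 rose: Tlr2, the receptor for bacterial lipoproteins, from 39.4, 37.8, 51.0 and 51.1 CPM to 305, 259, 234 and 260.2 CPM (log2 fold change 2.56 ± 0.12 (SE), adjusted p = 6.93e-17), and Cd14 from 422, 449, 491 and 509 CPM to 1380, 1245, 1154 and 1272 CPM (log2 fold change 1.43 ± 0.18 (SE), adjusted p = 3.5e-07). Tlr4 itself had means of 159 and 170.1 CPM (log2 fold change 0.10). Over all tested genes 3.46% were higher and 1.64% lower. Of 18 adaptor and kinase genes, 1 rose and 1 fell, shares of the order of this background. The riser was Map3k8 (TPL2), a kinase upstream of ERK (log2 fold change 1.21). The other was Tab1, a partner of the kinase TAK1, with 12.4, 14.1, 12.8 and 10.7 CPM at 0 h and 5.82, 5.54, 5.87 and 4.81 CPM at 1 h (log2 fold change -1.17 ± 0.15 (SE), adjusted p = 3.24e-07). Myd88, Ticam1 and Ticam2 had log2 fold changes of 0.08, 0.50 and 0.10.

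Of 20 tested interferon-stimulated genes, 3 (15.0%, against 3.46% of all genes) rose (Oasl1, Isg15 and Ifit1, with log2 fold changes of 1.80, 1.78 and 1.17) and 1 (5.0%, against 1.64%) fell, with a median of 0.07. Stat2, a subunit of the factor that carries interferon signals to these genes, was the member that fell, from 90.4, 87.0, 91.7 and 79.0 CPM to 33.1, 35.5, 31.6 and 35.6 CPM (log2 fold change -1.36 ± 0.081 (SE), adjusted p = 1.29e-14). Stat2 shares its locus with Apof, which was called lower as well. The other 16 were not called and lay between -0.40 (Oas2) and 0.85 (Rsad2, adjusted p = 7.17e-06, under the limit of size), 9 of them above 0. Of 7 interferon regulatory factors, Irf1 rose from 105, 77.7, 96.5 and 103 CPM to 1001, 919.7, 865 and 868 CPM (log2 fold change 3.26 ± 0.1 (SE), adjusted p = 5.26e-22) and Irf4 by 1.31 on the log2 scale. Irf3, Irf5, Irf8 and Irf9 lay between -0.26 and 0.27.

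Of 13 coagulation, fibrinolysis and adhesion genes 9 rose, with a median log2 fold change of 1.63: F3 (tissue factor) rose by 4.05 and Sdc4 (syndecan-4) from a mean of 161 to 1378 CPM. In the BCL2 family and its relatives, 6 of 15 rose and 1 fell. Over all tested genes 3.46% were higher and 1.64% lower. Bcl2a1a, Bcl2a1b and Bcl2a1d, which are near-identical copies whose reads may be shared, rose, as did Cflar, an inhibitor of caspase-8 (log2 fold change 2.66). Of the death-promoting BH3-only genes, Bcl2l11 (BIM) and Pmaip1 (NOXA) rose by 1.86 and 1.62, and Bbc3 (PUMA) fell, from 7.57, 8.64, 8.63 and 7.08 CPM to 3.83, 3.79, 4.14 and 3.14 CPM (log2 fold change -1.09 ± 0.3 (SE), adjusted p = 0.00785).

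Ptgs2 (cyclooxygenase-2) rose from 1.82, 2.40, 0.750 and 1.73 CPM to 447, 494, 391 and 567 CPM (log2 fold change 8.10 ± 0.25 (SE), adjusted p = 5.94e-22), and of 10 prostaglandin and leukotriene genes only Ptger4, a receptor for prostaglandin E2, was called beside it. Olr1, a receptor for oxidized LDL, rose by 7.52 on the log2 scale, alone among 14 uptake and scavenger genes. The list counts of this paragraph stand beside 3.46% of all tested genes called higher. Acod1, which makes itaconate, rose from 5.15, 5.21, 7.05 and 6.50 CPM to 264, 245, 201 and 262 CPM (log2 fold change 5.35 ± 0.18 (SE), adjusted p = 3.42e-21), while Nos2 was at 0.0957 CPM on average at 1 h. In that metabolism list 4 of 14 rose, the others being Slc7a11, Arg2 and Arg1. Arg1 was at 1.36, 1.04, 1.43 and 0.867 CPM and 2.13, 3.58, 1.87 and 2.09 CPM, and without replicate 2 at 1 h its log2 fold change was 0.79 with an adjusted p of 0.0681. Among 11 receptors for nucleotides and adenosine, Adora2a, Adora2b and P2ry2 rose. Adora2a had 6 counts at 0 h and 25 at 1 h over the libraries, and without replicate 2 at 1 h its adjusted p was 0.0512.

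Of 16 factors of resting macrophages, 4 rose: Id3, Cebpb, Id2 and Tfec, with log2 fold changes of 3.78, 2.27, 1.86 and 1.23. Spi1 (PU.1), Maf and Pparg lay at -0.08, 0.05 and 0.15, and Hhex and Cebpa at -0.67 and -0.60, below the limit of size. Skil and Tgif1, co-repressors of SMAD proteins, rose by 3.25 and 1.85, the only 2 of 15 TGF-β and BMP genes. Of 15 clock genes Nfil3 and Bhlhe40 rose, and of 16 cyclin and CDK inhibitor genes Cdkn1a (p21) and Ccng2. Over all tested genes 3.46% were higher, and no set test was made on these lists. Of 12 reference genes 0 were called in either direction, with a median of -0.0046. edgeR and DESeq2 both gave that count, and 1 of the 12 had an unadjusted p under 0.05. Over the 21 lists with 0 lower genes, 18 of 278 members had an unadjusted p under 0.05 with a negative change in edgeR, and DESeq2 called 0 of them lower.

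**Figure D3:**
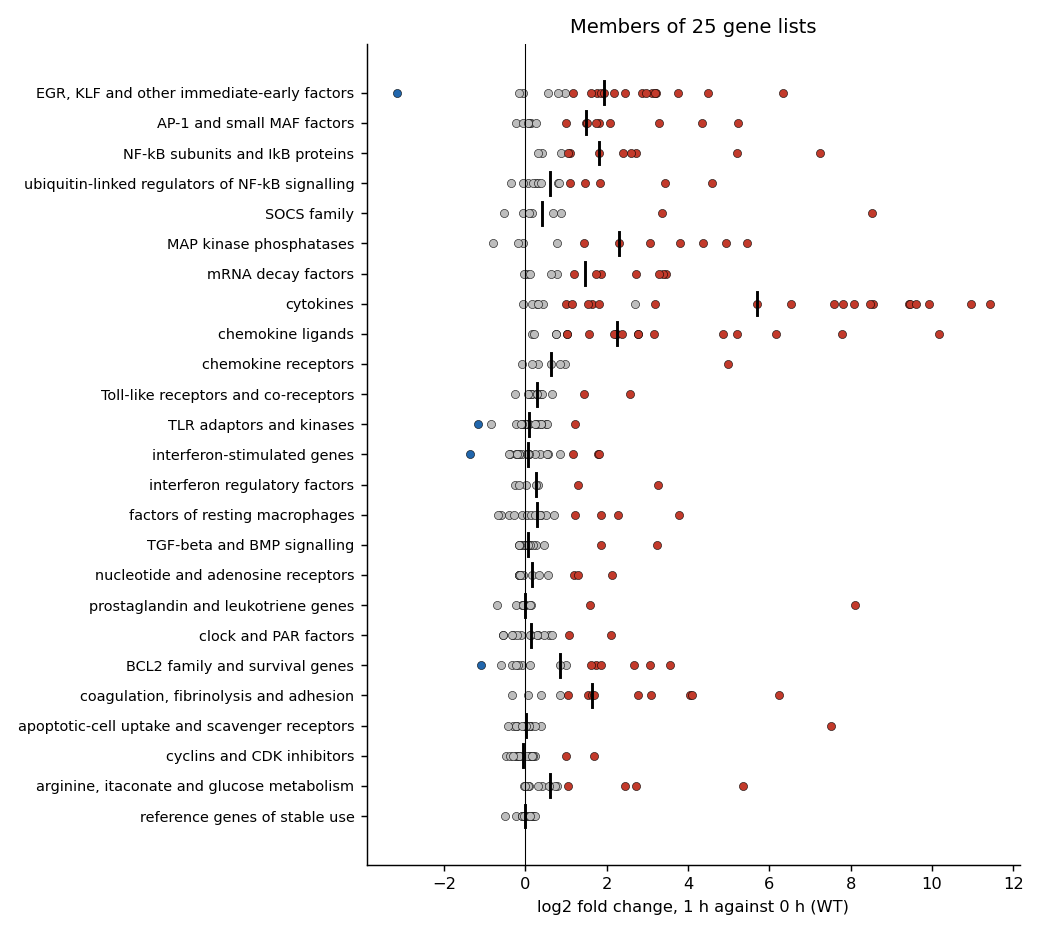
Log2 fold changes (horizontal axis, 1 h against 0 h, BMDM-WT) of the tested members of 25 gene lists (rows), with genes called higher in red, called lower in blue and not called in grey. The black bar is the list's median, which is 5.70 for the cytokines and close to 0 for the reference genes.

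Repression at 1 h was led by 1 abundant transcript. Txnip (transcript at chr3:96557957-96561857, 8 exons, mm10), whose product binds thioredoxin and limits glucose uptake, was 778, 704, 893 and 778 CPM at 0 h and 122, 124, 111 and 118 CPM at 1 h (log2 fold change -2.73 ± 0.11 (SE), adjusted p = 4.22e-19), which is 0.151 times its starting level. Gm15441, a non-coding gene that overlaps Txnip, followed it in all 32 libraries (Pearson r across the libraries 0.994, a description) and its log2 fold change was -2.69. Whether its counts are reads of Txnip cannot be told apart, since the use of strand in counting is not stated. The 10 largest losses in RPKM made up 65.6% of the summed loss of the repressed genes, and Txnip alone went from 282 to 42.5 RPKM. That share may count a signal more than once, since the 10 hold Txnip with Gm15441 and the overlapping Tmem140 and Cyren. It also holds the short hairpins Mir7115 and Mir142b, whose length inflates RPKM.

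Other genes named among those that fell differed in abundance. Cd300lb, an activating receptor of the CD300 family, was 341, 317, 341 and 349.7 CPM at 0 h and 129, 131, 135 and 143 CPM at 1 h (log2 fold change -1.33 ± 0.071 (SE), adjusted p = 6.57e-16). Rsrp1, an arginine- and serine-rich protein gene, was 193, 161, 123 and 129.6 CPM and 52.2, 55.6, 43.3 and 45.0 CPM (log2 fold change -1.63 ± 0.19 (SE), adjusted p = 4.58e-08). Tmem140 and Cyren, which overlap on the genome, fell by 1.47 and 1.41 on the log2 scale, and their counts rose and fell together across the libraries (Pearson r 0.9999 over 32 libraries), so that only 1 signal can be counted. Lyl1, a bHLH transcription factor of blood cells, went from 32.1, 35.0, 29.4 and 33.0 CPM to 16.2, 16.7, 14.8 and 13.6 CPM (log2 fold change -1.08). Angptl4, a secreted inhibitor of lipoprotein lipase, was 7.42, 5.21, 11.6 and 8.67 CPM and 1.14, 2.10, 1.53 and 1.57 CPM (log2 fold change -2.35). Mir7115 and Mir142b, hairpins whose short length inflates RPKM, lie in or beside other genes and had at most 1.36 and 2.42 CPM. Mir142b had overlapping groups, and without replicate 1 or 2 at 0 h, or replicate 3 or 4 at 1 h, its adjusted p was 0.0518 to 0.0597.

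A large group among the repressed genes was on none of the 25 lists. Of the 12 lower genes with the most negative changes at 5 CPM or more, 7 carried a Zfp or Zkscan symbol. Zfp870 was 6.21, 4.89, 6.15 and 5.42 CPM at 0 h and 0.639, 1.12, 0.667 and 0.628 CPM at 1 h (log2 fold change -2.85 ± 0.22 (SE), adjusted p = 3.86e-12), and Zfp157 11.8, 11.5, 11.4 and 9.10 CPM and 2.27, 2.24, 2.14 and 1.57 CPM (log2 fold change -2.39 ± 0.17 (SE), adjusted p = 4.61e-13). Zfp472, Zfp748, Zfp87, Zkscan14 and Zfp799 fell by 2.73, 2.45, 2.27, 1.93 and 1.88 on the log2 scale. Most genes so named encode proteins with tandem C2H2 zinc fingers, many of which carry a KRAB domain and silence genes and transposons.

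Over all tested genes with a Zfp, Zscan or Zkscan symbol, Zfp36 and its relatives left out, 68 of 274 (24.8%) were lower and 7 were higher, against 1.64% and 3.46% of all genes. They made up 37.2% of the repressed genes. This set was chosen after its values were seen and carries no test. Their median log2 fold change was -0.46, and 210 of the 274 were below 0. In BMDM-Nur77-KO, whose 8 libraries are separate from those of WT, 72 of the 274 (26.3%) were lower, against 1.22% of all genes, 231 were below 0 and the median was -0.50. Of the 68, 55 were also lower there. The 68 genes were scarce, with 1.28 to 19.6 CPM at 0 h, and their 4 libraries at 1 h lay wholly below those at 0 h. Of the 68, 64 had a higher mean at 5 h than at 1 h and 67 at 18 h. The call chose these genes for low WT values at 1 h, and nothing is read from these WT counts. In BMDM-Nur77-KO, 60 of the 68 had their lowest mean over the 4 times at 1 h, against 120 of all 183 repressed genes, which include the 68. The GC content of the 274 transcripts was 44.7% in the median, against 50.2% over all tested genes, and with a correction for GC 74 were lower in BMDM-WT and 64 in BMDM-Nur77-KO. The exceptions that rose were Zfp719, Zfp558, Zfp658, Zfp131, Zfp703, Zfp263 and Zfp697, with log2 fold changes of 2.88, 2.12, 1.67, 1.50, 1.41, 1.25 and 1.11.

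**Figure D4:**
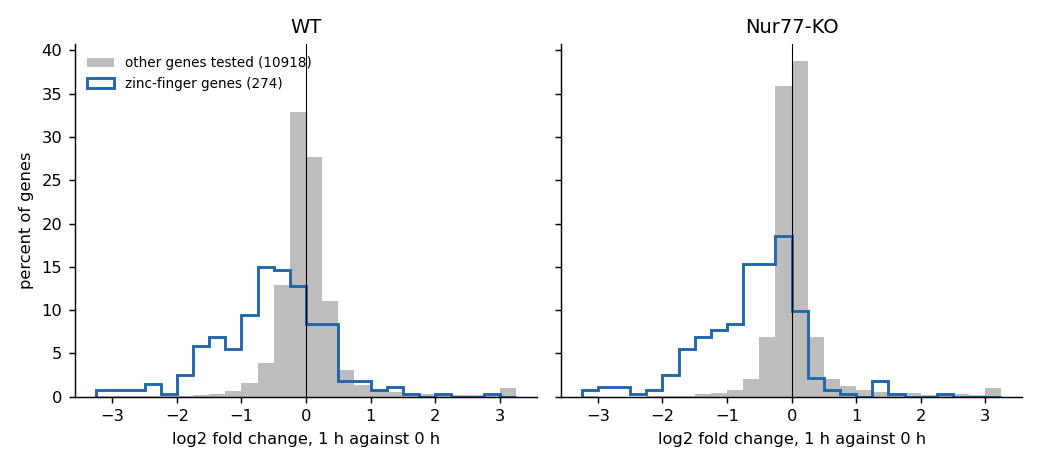
Distribution of log2 fold changes (1 h against 0 h, values beyond 3.2 in size drawn at the edge) as a percent of genes, for 274 zinc-finger genes (blue line) and the 10918 other tested genes (grey), in BMDM-WT and in BMDM-Nur77-KO. In both genotypes the zinc-finger genes are shifted below 0, with medians of -0.46 and -0.50.

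Both called groups had fewer exons and shorter spans in the median than all tested genes. The induced genes had a median of 5 exons and spanned a median of 10400 bases, and the repressed genes 4 exons and 8688 bases, against 9 exons and 20159 bases over all tested genes. Of the induced genes 55.6% had 5 exons or fewer, of the repressed 80.3% and of all tested 30.6%. Transcript length was about equal, with medians of 2623, 2795 and 2772.5 bases. The repressed genes were also low in abundance at 0 h, at a median of 2.03 RPKM, against 4.04 for the induced and 8.03 for all tested genes. These are descriptions with no test, and low abundance, exon number and change cannot be told apart here. The repressed genes include the 68 zinc-finger genes (37.2% of them), and the 274 tested genes so named had a median of 5 exons. What this family adds to the figures of the repressed genes was not tested.

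Over the 4 times of LPS, the mean level of the induced genes was highest at 1 h for 171, at 5 h for 190 and at 18 h for 26. At 5 h 118 had fallen to 0.5 times their level at 1 h or lower, and 145 had risen to at least 2 times it. Some genes were transient. Egr1 had means of 116, 1004, 42.6 and 6.36 CPM at 0, 1, 5 and 18 h, Nr4a1 19.6, 437, 0.932 and 0.317 CPM and Fosb 5.63, 114, 0.496 and 0.0678 CPM. In these 3 genes the mean at 5 h lay below that of unstimulated cells. Csf2 (0, 28.4, 0.265 and 0.109 CPM), Cxcl1 (0.344, 396, 7.34 and 0.0919 CPM) and Tnfsf9 (3.19, 728, 26.6 and 4.26 CPM) were lower at 5 h and lower again at 18 h.

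Others were only beginning at 1 h. Il6 had means of 0, 7.19, 234 and 4.10 CPM, Il12b 0.0189, 19.0, 303 and 36.9 CPM and Cxcl10, an interferon-induced chemokine, 5.40, 156, 6782 and 1360 CPM. Acod1 rose from 243 CPM at 1 h to 9475 CPM at 5 h. Tnf (40.5, 3727, 1326 and 276 CPM) and Nfkbia (40.9, 1504, 771 and 262 CPM) were highest at 1 h. At 18 h 194 of the 387 were at no more than 2 times their mean at 0 h.

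For the repressed genes the mean was lowest at 1 h for 132, at 5 h for 50 and at 18 h for 1, and at 18 h 165 of the 183 were at 0.5 times their level at 0 h or higher. Txnip had means of 789, 119, 471 and 287 CPM. Stat2, lower at 1 h, stood at 784 and 1314 CPM at 5 and 18 h, above its level in unstimulated cells. Cd300lb (337, 135, 9.75 and 103 CPM) and Lyl1 (32.4, 15.3, 1.11 and 19.0 CPM) went lower at 5 h. These time courses are levels side by side, and no test was made on them. The genes were chosen on their values at 0 h and 1 h, so the counts by time partly follow from that choice.

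The same comparison in BMDM-Nur77-KO called 369 genes higher (3.3%) and 136 lower (1.22%). Nr4a1 itself was 4.88, 4.57, 4.42 and 6.92 CPM at 0 h and 244, 178, 146 and 194 CPM at 1 h in these libraries, below the WT libraries at the same time but not absent. The counts are per whole transcript, so reads from the deleted part and from the rest cannot be told apart, and this level does not check the genotype labels. Of the 387 genes induced in WT, 323 were also called higher (83.5% of the WT list and 87.5% of the KO list), and 386 had the same sign. Of the 183 repressed genes, 103 were also called lower (56.3% and 75.7%), and 181 had the same sign. Across the 570 called genes, the log2 fold changes of the genotypes had a Pearson r of 0.974, and across all tested genes of 0.840, in both cases across genes that are not independent replicates. The median log2 fold change in KO was 1.89 for the WT-induced and -1.16 for the WT-repressed genes. WT values chose these genes, and what this choice adds to the difference in size was not tested. The genes called in KO had medians of 2.12 (higher) and -1.39 (lower) in KO and 2.00 and -1.45 in WT. The median rise of the genes called in KO was thus larger in KO, and their median fall was larger in WT.

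**Figure D5:**
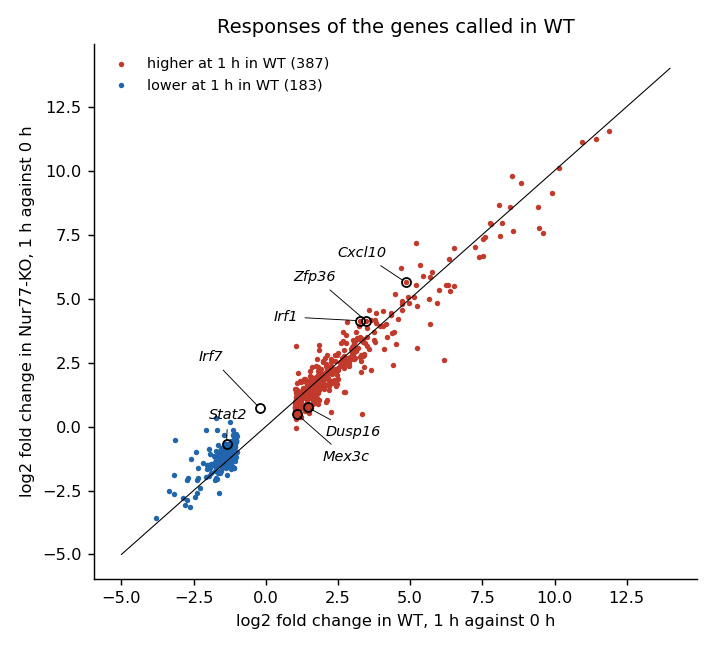
Log2 fold change at 1 h in BMDM-Nur77-KO (vertical) against BMDM-WT (horizontal) for the 387 induced (red) and 183 repressed (blue) genes of WT, with the line of equal change and the 7 genes whose responses differed circled. Most genes lie close to the line, and Irf7, not called in WT, lies above it.

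A test of the difference between the responses themselves called 7 of 11192 genes (0.0625%) with all 32 libraries in the fit, 36 with DESeq2 and 343 with only the 16 libraries compared, both of which held all 7. It called 3 (Irf1, Zfp36 and Stat2) with no filter other than 1 count, and 2 to 9 when 1 of the 16 libraries was left out. Irf1 and Zfp36 were called in all 16 of those fits, Stat2 in 13, Cxcl10 in 6, Dusp16 in 5, Irf7 in 3 and Mex3c in 2. The fewest, Irf1 and Zfp36 alone, remained without KO replicate 3 at 0 h, KO replicate 3 at 1 h or WT replicate 3 at 1 h. For Irf1, the level was 56.8, 51.5, 52.5 and 56.9 CPM in KO at 0 h and 1104, 830.0, 1024 and 864 CPM at 1 h, so the unstimulated level was below that of every WT library and the level at 1 h overlapped (difference of log2 fold changes 0.88 ± 0.13 (SE), adjusted p = 0.00285). Zfp36 showed the same order, with 105, 95.5, 107 and 111 CPM in KO at 0 h and 2087, 1757, 1817 and 1706 CPM at 1 h (difference 0.68 ± 0.11, adjusted p = 0.00626). Cxcl10 was 1.81, 1.94, 2.13 and 2.99 CPM at 0 h and 119, 93.8, 113 and 116 CPM at 1 h, below WT at both times, and its rise was larger in KO (difference 0.79 ± 0.15, adjusted p = 0.0344).

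Stat2 was 62.5, 61.1, 58.5 and 73.0 CPM in KO at 0 h and 36.8, 33.7, 44.8 and 41.5 CPM at 1 h, and its fall was smaller than in WT (difference 0.66 ± 0.11, adjusted p = 0.0104). Irf7, a factor that amplifies interferon genes, was 8.68, 10.5, 12.2 and 12.9 CPM and 17.5, 15.5, 18.7 and 21.9 CPM in KO (log2 fold change 0.73) and 18.6, 19.3, 26.7 and 19.4 CPM and 19.0, 19.8, 15.8 and 17.6 CPM in WT, where it was not called (difference 0.95 ± 0.19, adjusted p = 0.0491). Dusp16 and Mex3c, an RNA-binding ubiquitin ligase gene, changed less in KO, with differences of -0.70 ± 0.13 and -0.61 ± 0.12 and adjusted p values of 0.0244 and 0.0491. In all 7 genes the KO libraries at 0 h lay wholly to 1 side of the WT libraries at 0 h, as they did in 22.8% of all tested genes. The test that chose the 7 uses these values, and nothing is read from that count. At an unadjusted p under 0.05 in edgeR, the responses of 1225 of the 11192 genes differed. Among them were 98 of the 387 induced and 35 of the 183 repressed in WT. The difference ran against the WT change for 71 of the 98 and for all 35, among genes that WT values chose. Of the 343 genes called with only the libraries compared, 220 had a difference below 0 and 123 above 0. Tnf and Egr1 had differences of 0.45 and 0.59, each with an adjusted p of 0.433, and Atf3 of -0.12 (adjusted p = 0.556).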

How the data were processed

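RNA of bone marrow-derived macrophages was sequenced as strand-specific, paired-end libraries. The submitters' processing notes name CASAVA 1.8.2, HISAT2 2.1.0 and the mouse build mm10. The authors aligned the reads with HISAT2, kept alignments with a mapping quality over 15 and deposited estimated counts of tags per RefSeq transcript made with HOMER, without normalization. Each mate of a pair added 0.5 (28.65% of values were not whole and 100% were multiples of 0.5), so counts were rounded here. Whether counting used strand is not stated.

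Of 42361 transcripts, those without a gene name (0.233% to 1.37% of tags) were left out, and the transcript with the highest mean count stood for each of 25067 genes, 8193 of which had several. Genes over 1 RPKM in the mean of at least 1 of 8 groups were tested (11192). Lengths, GC content, exon numbers and spans came from GENCODE transcripts. These were matched by RefSeq accession for 91.4% of transcripts, and another transcript of the gene was used for 8.08%. Library sizes were scaled by TMM, and edgeR 4.0.16 (R 4.3.3, limma 3.58.1) fitted the quasi-likelihood model on all 32 libraries with Benjamini-Hochberg adjustment over all genes tested. Every adjusted p in the text comes from this fit unless another is named. Samples were grouped by their labels. The comparisons were WT 1 h against 0 h, the same in Nur77-KO, and the difference between them. Intervals and floors, at 95% and 3 counts, cover counting error only.

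Genes named in the text were Tnf, Egr1, Atf3 and Nr4a1, the 12 largest changes each way among called genes with groups that did not overlap and at least 5 CPM, the 10 largest gains and losses in RPKM, up to 4 called members of each of 25 lists (others with values only), and up to 8 genes whose responses differed. The members and lists were chosen with earlier results of these data known. The zinc-finger set was chosen after its values were seen. Alternatives were DESeq2 1.42.0, its size factors in edgeR, other filters, only the libraries compared, all transcripts, a GC correction, other limits of size, a replicate block and leaving out each library. The scripts were tested on simulated data.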

Additional observations from a re-analysis of the deposited data

Results flagged for a closer look

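In 20 of 216 groups of 4 libraries, 1 library lay far from the other 3 by Dixon's test, and chance flags about 1 in 20. The 216 include groups at 0 in every library, such as Csf2 and Il6 at 0 h, which were skipped and could not be flagged. At 0 h, replicate 1 alone had counts of Sele and Il12b (0.0757 CPM each) and of Mir155hg (0.227 CPM), against 0 in the others, and Dusp14 stood at 0.530 CPM against 0.361 to 0.375. Replicate 2 at 0 h was apart for Jun (76.1 CPM against 67.2 to 68.0), Btg2 (34.3 against 46.2 to 46.7) and Cxcl3 (0.104 against 0). Replicate 3 at 0 h was apart for Socs3 (0.525 CPM against 1.29 to 1.30), Dnajc28 (5.85 against 5.20 to 5.30) and Irf7 (26.7 against 18.6 to 19.4), and replicate 4 for Zfp157 (9.10 against 11.4 to 11.8).

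At 1 h, replicate 2 was apart for Zfp870 (1.12 CPM against 0.628 to 0.667), Mir142b (1.12 against 0.314 to 0.426), Cxcl11 (1.40 against 0.418 to 0.534) and Arg1 (3.58 against 1.87 to 2.13). Replicate 3 was apart for Cish (3.34 CPM against 4.71 to 4.83) and Bcl2l11 (288 against 346 to 357). Replicate 4, the library with the fewest counts, was apart for Ccl2 (802 CPM against 645 to 655), Zc3h12c (354.0 against 265 to 279) and Slc7a11 (26.0 against 16.5 to 17.3).

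The response differed between genotypes for 7 genes by the test of the difference itself. On the log2 scale, the response in Nur77-KO minus that in WT was 0.88 for Irf1, 0.68 for Zfp36, 0.66 for Stat2, 0.79 for Cxcl10, 0.95 for Irf7, -0.70 for Dusp16 and -0.61 for Mex3c.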

How the results depend on the processing

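The counts of 387 higher and 183 lower genes came to 402 and 179 with DESeq2, 401 and 176 with its size factors, 371 and 185 with a GC correction and 411 and 249 with edgeR's own filter. With a limit of 0.58 on the log2 scale, 613 were higher and 530 lower, and 244 of the repressed genes were also lower in Nur77-KO. With no limit there were 1166 and 1097, of which 637 and 432 were also called in Nur77-KO. Leaving out 1 library gave 369 to 392 higher and 174 to 201 lower genes, 313 to 321 induced and 99 to 110 repressed genes shared with Nur77-KO. The count of genes whose responses differed between genotypes was the least stable: 7 in the fit reported, 36 with DESeq2, 3 with no filter other than 1 count, 15 with the GC correction and 343 with only the libraries compared, where fewer samples set the spread. Leaving out 1 library gave 2 to 9, with 2 without Nur77-KO replicate 3 at 0 h or 1 h or WT replicate 3 at 1 h. The cause was not tested. The deviations of same-numbered WT libraries at 0 h and 1 h had correlations of 0.05, 0.02, -0.08 and -0.14, against -0.35 to 0.26 for other pairs. With so few libraries in a group, this cannot show whether same-numbered libraries share a mouse or a plate. The fit with a replicate block called 385 higher and 182 lower genes, 321 and 103 shared with Nur77-KO and 6 that differed. Of 1829 values of 108 named genes under the alternatives, 1823 kept their direction and their side of an adjusted p of 0.05. In 6 the adjusted p no longer passed (Mir142b, Adora2a and Arg1, each without 1 library), and 0 reversed. The limit on the size of the change was not part of this check, and some genes, such as Atf3 (log2 fold change 1.01), lie just over it. Of 950 counts of called list members, 35 moved by more than a set ratio or to or from 0, and 915 did not. The 68 lower zinc-finger genes ranged from 65 to 74. Depth limits genes with few counts: 33 of the 387 had at most 3 counts in every library at 0 h.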
